A study of Homo sapiens with 6 samples.

Results

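Immediate early genes are genes that cells transcribe within minutes of a growth factor or stress signal, before new protein is made. The 35 studied here were given as a list of gene names, with no threshold on a measured value but with earlier results of these data known, and all 35 were found among the 27722 genes of the deposited tables. They were followed in RNA-seq of MUTZ3, an acute myeloid leukaemia cell line with an inversion of chromosome 3. Cells were collected 72 h after transduction with a retroviral p50MX construct. The PLDLS group received p50MX-3xFLAG-3xNLS-4xPLDLS-Zeo, with 4 copies of a short peptide through which partner proteins dock on CTBP, a corepressor; per the labels it blocks the contact of CTBP with the transcription factor EVI1. The PLASS group received p50MX-3xFLAG-3xNLS-4xPLASS-Zeo, the same construct with a peptide said to lack that effect. The empty vector (EV) group received p50MX-3xFLAG in replicate 1 and p50MX-Zeo in replicate 2, so its libraries differ in vector. There were 2 libraries per group (PLDLS 1, PLDLS 2 and so on) and 6 in all, from 1 cell line. The table names carry EXP1 for every replicate 1 and EXP2 for every replicate 2. Since no label says that the replicates were separate cultures, the tests here gauge differences against a spread between libraries that could be purely technical.

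In the textbook account, a receptor signal passes through RAS, RAF and MEK to the kinase ERK. ERK phosphorylates ternary complex factors that sit with SRF on a DNA element called the CArG box, while other kinases act through CREB on the cAMP response element. Many of the first products are transcription factors, among them the Fos and Jun proteins that pair to form AP-1, and the EGR and NR4A families. Others end the response: the DUSP phosphatases remove phosphate from ERK, JNK or p38, and ZFP36 speeds the decay of early mRNAs. In myeloid cells several of them, such as EGR1 and KLF4, are also known from monocyte differentiation.

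Promoter windows of the members were searched for the elements through which these routes act. RefSeq windows (GRCh38.p14, 250 bases before to 50 after a transcript start) were at hand for 29 of the 35 members, in 38 windows. Both strands were searched, and no match of one motif overlapped a match of another in the member windows. The CArG box was found in 3 of the 29 members (SRF, EGR1 and EGR2), against 1.60% of all 27305 genes with a window and 1.59% of the 11368 of them that passed the expression filter. The full cAMP response element TGACGTCA was found in 3 (DUSP1, JUND and MAFF), against 2.25% of all and 3.55% of expressed genes. The pattern TGANTCA, which covers the AP-1 element but allows any middle base, was found in FOSL2 alone, against 9.37% and 7.01%. These shares are therefore those of the wider pattern. TATAAA was found in 6 members (14.0% of all and 8.69% of expressed genes) and the EGR element GCGNGGGCG in 9 (11.2% and 18.2%). A match describes letters in a window and is not a bound site. Bases farther than 250 before a start were not searched, so a member without a match may still have the element there. The 250 bases before the start are shown for the 6 members with a CArG box or TGACGTCA, which are the elements of the SRF and CREB routes. Capitals mark these matches; for genes with several starts, the start with the match is shown.
SRF (chr6:43171019-43171268, plus strand): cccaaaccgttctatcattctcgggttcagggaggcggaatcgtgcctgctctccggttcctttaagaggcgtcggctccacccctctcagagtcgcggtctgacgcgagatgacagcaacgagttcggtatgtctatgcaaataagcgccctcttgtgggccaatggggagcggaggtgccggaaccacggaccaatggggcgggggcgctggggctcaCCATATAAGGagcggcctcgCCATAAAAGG
EGR1 (chr5:138465229-138465478, plus strand): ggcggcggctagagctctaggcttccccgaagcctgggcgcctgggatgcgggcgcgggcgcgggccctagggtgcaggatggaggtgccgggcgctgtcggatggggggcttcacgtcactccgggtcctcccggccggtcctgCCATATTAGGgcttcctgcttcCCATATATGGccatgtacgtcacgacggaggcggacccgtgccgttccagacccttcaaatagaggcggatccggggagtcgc
EGR2 (chr10:62816367-62816616, minus strand): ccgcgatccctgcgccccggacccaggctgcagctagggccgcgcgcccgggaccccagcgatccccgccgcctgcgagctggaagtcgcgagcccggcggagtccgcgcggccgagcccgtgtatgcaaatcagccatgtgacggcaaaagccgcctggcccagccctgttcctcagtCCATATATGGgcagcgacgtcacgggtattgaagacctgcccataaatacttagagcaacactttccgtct
DUSP1 (chr5:172771196-172771445, minus strand): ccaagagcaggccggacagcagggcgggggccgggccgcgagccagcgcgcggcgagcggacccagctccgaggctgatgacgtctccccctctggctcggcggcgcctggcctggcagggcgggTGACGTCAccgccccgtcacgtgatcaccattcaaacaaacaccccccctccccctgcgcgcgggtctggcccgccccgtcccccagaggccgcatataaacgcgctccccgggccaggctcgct
JUND (chr19:18281623-18281872, minus strand): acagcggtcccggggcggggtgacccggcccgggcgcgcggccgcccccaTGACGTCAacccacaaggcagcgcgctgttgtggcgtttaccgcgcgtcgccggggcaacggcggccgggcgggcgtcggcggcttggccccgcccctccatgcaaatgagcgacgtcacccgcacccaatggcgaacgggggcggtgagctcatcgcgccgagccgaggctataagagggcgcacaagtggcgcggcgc
MAFF (chr22:38201744-38201993, plus strand): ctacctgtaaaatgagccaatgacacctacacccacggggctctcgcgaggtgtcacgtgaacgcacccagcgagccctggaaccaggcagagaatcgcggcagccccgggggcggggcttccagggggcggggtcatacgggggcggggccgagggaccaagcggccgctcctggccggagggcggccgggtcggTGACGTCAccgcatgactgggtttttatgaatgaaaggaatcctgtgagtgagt

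The members spanned a wide range of levels, given as TPM (Salmon's length-scaled transcript abundance, which allows genes to be compared). Mean TPM over the 6 libraries was at least 50 for 9 members: DUSP6, JUND, BTG2, KLF6, IER5, JUNB, FOSL2, SRF and IER2. It was at least 10 for 23. DUSP6, a cytoplasmic phosphatase of ERK, had the highest mean of the list at 285 TPM (range over libraries 110 to 522), followed by JUND at 241 (166 to 350). The founding members of the class were low: FOS lay at 1.38 to 4.85 TPM and EGR1 at 1.56 to 4.58. EGR4, RHOB and CCN1 were under 1 TPM in every library, with at most 10 reads, and did not pass the expression filter. The other 32 were tested.

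**Figure D1:**
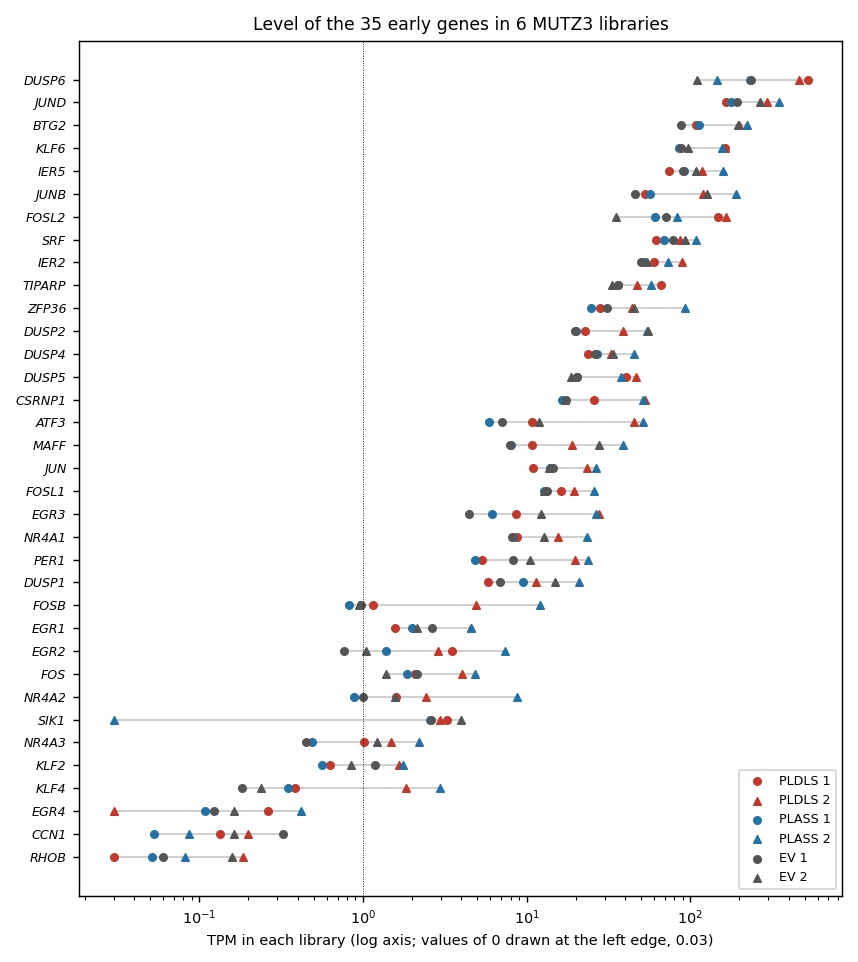
TPM of each of the 35 early genes in each of the 6 libraries on a log axis, genes ordered by mean; circles are replicate 1 (EXP1), triangles replicate 2 (EXP2), colours the groups, and the dotted line marks 1 TPM. Triangles lie mostly to the right of the circles, while DUSP6 and FOSL2 are highest in both PLDLS libraries; SIK1 is drawn at the left edge in PLASS 2, where it is listed at 0.

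Total estimated reads were lower in EXP2 than in EXP1 for each group, and ranged from 5582078 (PLDLS 2) to 35800826 (EV 1), so values of low genes are least precise in PLDLS 2. All 10 myeloid markers were at 1 TPM or more, with a summed level of 1608 to 2273 TPM. The erythroid sum was at most 0.649 TPM, with HBB and HBA1 at 0. In the B cell list MS4A1 was at 0, and the fibroblast list was carried by PDGFRB, with COL3A1 and DCN at 0. In bulk RNA, fewer cells of a type and less RNA per cell cannot be told apart. SIK1, a kinase of the CREB pathway, shares reads with the near-identical copy LOC102724428 and is uncertain: in PLASS 2 it was listed with 0 reads and the copy with 72, and their sum lay between 5.14 and 8.84 CPM in all 6 libraries.

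The first question was how the early genes stood with PLDLS against PLASS, the peptide without the stated effect. DUSP6 was at 728 and 661 CPM (reads scaled to library size, TMM-adjusted) in PLDLS 1 and 2, at 325 and 212 in PLASS 1 and 2 and at 294 and 172 in EV 1 and 2. Both PLDLS libraries were above all 4 others. FOSL2, which encodes the AP-1 subunit FRA2, was at 410 and 482 CPM with PLDLS, 170 and 241 with PLASS and 179 and 110 with EV, again without overlap. DUSP5, a nuclear phosphatase of ERK, was at 39.2 and 48.6 CPM with PLDLS, 20.0 and 39.0 with PLASS and 18.4 and 20.7 with EV; here PLDLS 1 and PLASS 2 lay within 1% of each other.

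In edgeR's quasi-likelihood test without a block, 0 of 32 members passed an adjusted p of 0.05 (the threshold for a call) in PLDLS vs PLASS. Of all 14631 genes tested 0% passed. At an unadjusted p under 0.05 there were 2 members, DUSP6 and FOSL2 (4.93% of all genes), and DESeq2 called these 2 (0.807% of all genes) while limma-voom called 0. Libraries with the same number deviated together, so a second fit that blocks on the replicate number is given beside it. With the block, 1 member was higher (1.52% of all genes tested) and 0 lower (0.513% of all genes). It was DUSP6, with a log2 difference of 1.41 ± 0.17 (SE; adjusted p = 0.00853, against 1.37 ± 0.31 and 0.328 without the block). The difference was 1.16 within EXP1 and 1.64 within EXP2. The call held with each library left out.

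FOSL2 came next in PLDLS vs PLASS. Its log2 difference was 1.12 ± 0.25 with the block (adjusted p = 0.0652), and 1.27 within EXP1 and 1.00 within EXP2. It did not pass in this fit, but passed with the block in DESeq2 (0.000194), without the expression filter, when only these groups were fitted, after thinning to equal depth, and without PLASS 2, EV 1 or EV 2. DUSP5 had 0.63 ± 0.21 (0.231), with 0.95 in EXP1 and 0.31 in EXP2. DUSP1, a nuclear phosphatase of JNK and p38, was at 4.61 and 9.83 CPM with PLDLS and 7.64 and 17.6 with PLASS. Its log2 difference was -0.78 ± 0.20 (0.110), negative in both experiments. DUSP5 and DUSP1 both passed with the block when only these groups were fitted (adjusted p = 0.0116 and 0.0192). That fit had 1 residual degree of freedom and called 1113 of 14149 genes. DUSP4, a nuclear phosphatase of ERK and JNK, had -0.34 ± 0.13 (0.341). The 5 phosphatases therefore did not share a direction, with 2 positive and 3 negative differences.

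The remaining families gave no call in PLDLS vs PLASS. All 3 Jun genes had negative differences, with a median of -0.26 on the log2 scale. The median over the 32 members was -0.099 with the block, beside -0.0064 over all genes. Of the 32, 5 had both PLDLS libraries above both PLASS libraries, near the 14.9% of all genes that did so, and 0 had both below (14.3% of all genes). FOSB was at 1.86 and 8.54 CPM with PLDLS and 1.35 and 20.6 with PLASS, so that its difference was 0.35 within EXP1 and -1.22 within EXP2. NR4A2, an orphan nuclear receptor gene, did likewise with 0.64 and -1.72, and EGR2 with 1.09 and -1.22. PLASS 2 held the highest level of the 6 libraries for each of these 3 genes.

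**Figure D2:**
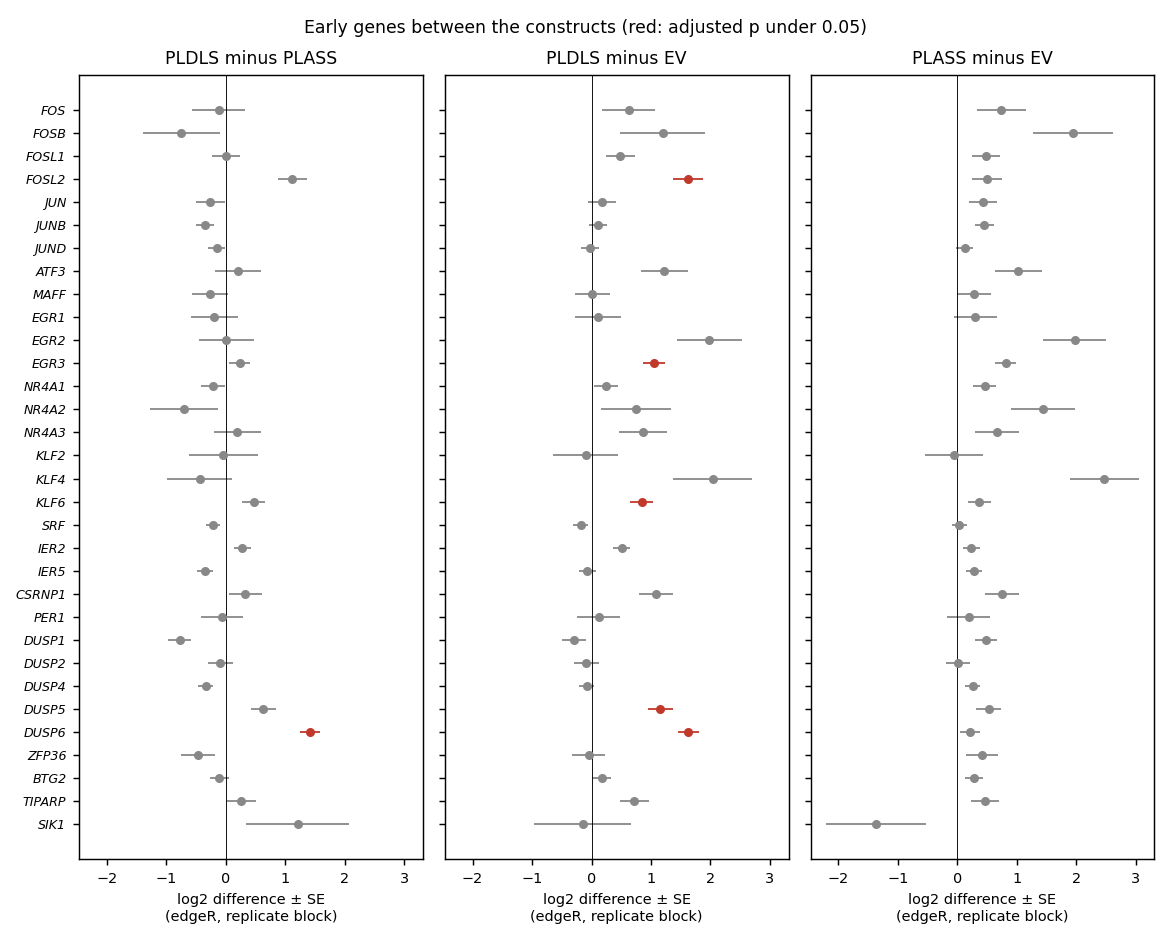
Log2 difference ± SE from edgeR with the replicate block for the 32 tested members, with PLDLS minus PLASS, PLDLS minus EV and PLASS minus EV in separate panels; red marks an adjusted p under 0.05. DUSP6 is red in both PLDLS panels; FOSL2, EGR3, KLF6 and DUSP5 are red only against EV, and in the right panel no member is red while nearly all points lie to the right of 0.

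PLDLS was also set against EV, a comparison that shares its PLDLS libraries with the one above. The fit without the block called 0 of 32 members, beside 0.0137% of all genes higher and 0% lower; 6 members had an unadjusted p under 0.05 (7.16% of all genes), DESeq2 called 2 (DUSP6 and FOSL2, beside 1.82% of all genes) and limma-voom 0. With the block 5 members were higher (3.24% of all genes tested) and 0 lower (1.00% of all genes). DUSP6 had a log2 difference of 1.63 ± 0.17 (adjusted p = 0.00255) and FOSL2 1.62 ± 0.25 (0.00980); without the block these were 1.58 ± 0.31 (0.150) and 1.62 ± 0.28 (0.118). Both calls held with each library left out.

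The other 3 calls with the block were each lost without 1 library or more. DUSP5 had 1.16 ± 0.21 (adjusted p = 0.0178; without the block 0.311), and missed the threshold without PLDLS 1 (0.142). EGR3, a zinc finger transcription factor gene, was at 13.4 and 44.4 CPM with PLDLS, 9.86 and 42.8 with PLASS and 6.50 and 21.4 with EV. Its libraries differed more between EXP1 and EXP2 than between the groups, and its blocked difference was 1.05 ± 0.18 (0.0139). That call was lost without PLDLS 1 (0.114) and without PLDLS 2 (0.0508). KLF6, a zinc finger factor gene, was at 289 and 284 CPM with PLDLS, 153 and 282 with PLASS and 138 and 191 with EV. It had 0.84 ± 0.20 (0.0497; without the block 0.559), and missed the threshold without PLDLS 1 (0.368), without EV 2 (0.0555) and with a stricter filter (0.0513).

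**Figure D3:**
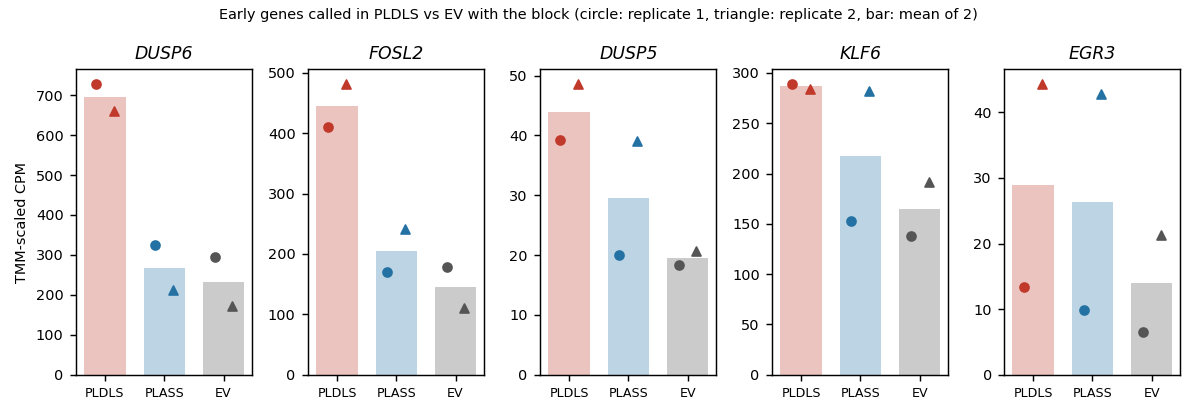
TMM-scaled CPM of the 5 members called in PLDLS vs EV with the block; bars are group means of 2 libraries, circles replicate 1 and triangles replicate 2, each gene on its own linear axis from 0. DUSP6 and FOSL2 show both PLDLS libraries above all others, KLF6 and EGR3 show PLASS 2 beside PLDLS 2.

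By role, all 4 Fos genes had both PLDLS libraries above both EV libraries in CPM, which held for 16.4% of all genes. Of the 4, 1 was called, FOSL2. FOS itself was at 1.68 and 3.53 CPM with PLDLS and 1.61 and 1.27 with EV, and FOSL1 at 11.1 and 15.2 against 8.58 and 9.95. FOSB was at 1.86 and 8.54 against 1.45 and 1.66. These are low counts: FOS had 28 and 19 reads with PLDLS and 61 and 23 with EV, and FOSB 31 and 46 against 55 and 30. In TPM the FOS libraries overlapped, with PLDLS 1 at 2.07 below EV 1 at 2.15. In FOS, FOSB and FOSL1, though not in FOSL2, PLASS 2 lay above both PLDLS libraries (4.14, 20.6 and 18.9 CPM). In the Jun family 0 of 3 were called, with a median log2 difference of 0.11 with the block. Of the 5 phosphatases 2 were called, and of the 5 SRF-group and nuclear regulator genes 0. Of all 32 members 11 had no overlap in the higher direction (16.4% of all genes) and 0 in the lower (13.5%). The median difference of the members was 0.37 with the block, beside -0.019 over all genes.

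PLASS vs EV shares its libraries with the comparisons above. No member passed in either fit, beside 0% of all genes without the block and 0.0137% with it. At an unadjusted p under 0.05 there were 3 members without the block (0.690% of all genes) and 11 with it (3.35%). Without the block DESeq2 called 0 members (0.0205% of all genes) and limma-voom 0. Differences were nevertheless positive for 30 of the 32 members, against 7198 of 14631 genes, with a median of 0.45 against -0.0032. Within both EXP1 and EXP2, PLASS lay above EV in 19 members (23.5% of all genes) and below in 0 (2991 of 14631 genes). In all tested members but DUSP1, DUSP2, BTG2 and SIK1, the difference was higher within EXP2 than within EXP1. For ATF3 it was -0.082 within EXP1 and 1.95 within EXP2, for PER1 -0.62 and 1.07, and for CSRNP1 0.063 and 1.44. The EV vector also differed between EXP1 and EXP2, and its part was not tested. Both PLASS libraries lay above both EV libraries in 2 members (1190 of 14631 genes) and below in 0 (965 genes). EGR3 had the smallest p (0.81 ± 0.18, adjusted p = 0.555), followed by KLF4, a monocyte-associated zinc finger gene (2.47 ± 0.58, 0.702), and EGR2 (1.97 ± 0.53, 0.876). JUNB had 0.46 ± 0.15 and FOSB 1.94 ± 0.67. For FOSB this rested on PLASS 2: without it the blocked difference was 0.30, and within EXP1 PLASS lay 0.078 below EV.

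More early genes, and more of all genes, passed the test between the experiment numbers than between the constructs. Each side held 3 libraries here, against 2 per construct. EXP2 and EXP1 libraries were compared with the groups as terms, so that every group added 1 library to each side. In this fit 21 of 32 members were higher in EXP2 (7.87% of all genes tested) and 1, DUSP6, was lower (9.67% of all genes). The median difference was 0.94, beside -0.017 over all genes, and 30 of 32 were positive. In 18 members all 3 EXP2 libraries lay above all 3 EXP1 libraries, which held for 18.3% of all genes, and in 0 they all lay below (21.0% of all genes). Depth and, within EV, the vector differed along the same number. After thinning every library to 5578302 reads 22 members were higher (7.71% of all genes) and 1 lower (8.93%). Without the EV libraries 28 were higher (11.5% of all genes) and 1 lower (11.2%).

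**Figure D4:**
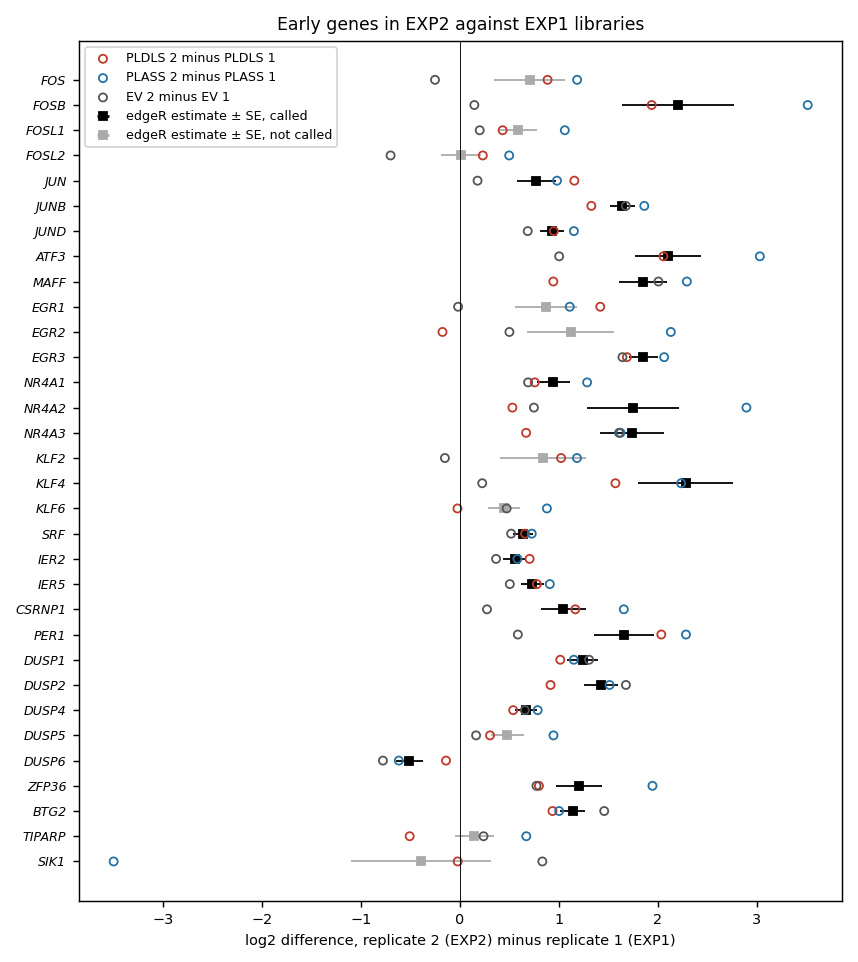
Difference between EXP2 and EXP1 for the 32 tested members, ordered by role; squares with bars are the edgeR estimates ± SE (black where called, grey where not), and open circles are the log2 differences of CPM + 0.5 within each group. Most circles lie to the right of 0 in all 3 groups, DUSP6 lies to the left in all 3, and the EV circle sits near 0 for FOSB, JUN, EGR1 and KLF2.

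In the AP-1 genes, all 3 Jun members were higher in EXP2. JUNB was at 41.9, 44.2 and 34.5 CPM in PLDLS 1, PLASS 1 and EV 1, and at 106, 162 and 111 in PLDLS 2, PLASS 2 and EV 2. The ranges did not overlap, and the log2 difference was 1.64 ± 0.13 (adjusted p = 0.000804). JUND had 0.93 ± 0.12 (0.00324). JUN, the partner of FOS in the classical AP-1 dimer, had 0.77 ± 0.19 (0.0306), but moved by 0.18 within EV, and its call was lost without either PLDLS or either PLASS library (0.0955 to 0.114) and after thinning (0.0612). Of the 4 Fos genes only FOSB passed (2.21 ± 0.57, 0.0327). It was at 1.86, 1.35 and 1.45 CPM in EXP1 and at 8.54, 20.6 and 1.66 in EXP2, so EV 2 lay between the EXP1 libraries, and the call was lost without PLDLS 1 (0.0593), PLASS 1 (0.0737) or PLASS 2 (0.0804), with DESeq2 (0.0865) and without group terms (0.0594). The within-group differences of FOSB were 1.94 for PLDLS, 3.51 for PLASS and 0.15 for EV, and whether they differ between groups was not tested.

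The other bZIP genes were both higher in EXP2. ATF3, a stress-induced factor gene, was at 9.16, 5.10 and 5.42 CPM in EXP1 and 39.7, 45.3 and 11.4 in EXP2 (2.10 ± 0.33, adjusted p = 0.00661). MAFF, which encodes a small MAF protein, was at 10.4, 7.79 and 7.24 against 20.4, 40.2 and 30.6 CPM (1.85 ± 0.24, 0.00370). For both genes every EXP2 library was above every EXP1 library.

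**Figure D5:**
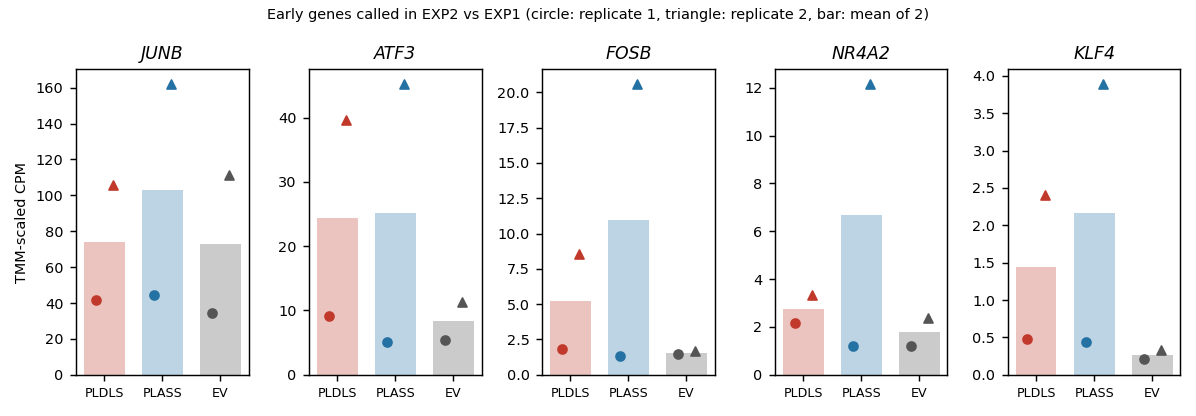
TMM-scaled CPM of 5 members called higher in EXP2; bars are group means of 2 libraries, circles replicate 1 (EXP1) and triangles replicate 2 (EXP2), each gene on its own linear axis from 0. The triangle is above the circle in all 3 groups; in FOSB and KLF4 the EV pair lies close together, and in NR4A2 PLASS 2 stands apart from the other libraries.

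Of the zinc finger factors, EGR3 moved most steadily, with 1.85 ± 0.15 (adjusted p = 0.000804) and differences of 1.69, 2.06 and 1.64 within PLDLS, PLASS and EV. EGR1 (0.87 ± 0.31, 0.0816) and EGR2 (1.12 ± 0.44, 0.106) did not pass. KLF4 passed at a low level (2.28 ± 0.48, 0.0176), with 8, 9 and 8 reads in EXP1 and 13, 48 and 6 in EXP2. Its call was lost without PLASS 1 (0.126) or PLASS 2 (0.164). KLF6 (0.45 ± 0.16, 0.0817) and KLF2 (0.84 ± 0.44, 0.194) did not pass.

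All 3 NR4A genes, which encode orphan nuclear receptors, were higher in EXP2. NR4A1 was at 12.0, 11.4 and 10.3 CPM in EXP1 and 20.6, 28.6 and 17.0 in EXP2 (0.94 ± 0.16, adjusted p = 0.00973; lost without PLASS 1, 0.0547). Its reads were also spread differently over its 4 listed transcripts. The transcript of 3517 bases held 94.8%, 91.9% and 93.0% of the NR4A1 reads in EXP1 and 44.7%, 41.0% and 50.2% in EXP2. In TPM this transcript was at 8.10, 7.35 and 7.34 in EXP1 and 5.86, 7.86 and 5.36 in EXP2, so the higher level of the gene in EXP2 lay on the 3 shorter transcripts. The transcript of 2590 bases went from 0, 0 and 0.234 TPM to 5.14, 7.07 and 4.65. Reads shared by overlapping transcripts were divided by the authors' software, these shares were noticed after their values were seen, and no test was run on them. NR4A3 had 1.74 ± 0.32 (0.0113) and NR4A2 1.75 ± 0.47 (0.0363), the second with calls lost without either PLASS library.

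SRF and the 4 nuclear regulator genes grouped with it were all higher in EXP2. SRF, the factor that binds the CArG box and has 2 of them just before its own start (printed above), was at 100, 114 and 119 CPM in EXP1 and 159, 189 and 171 in EXP2 (0.64 ± 0.10, adjusted p = 0.00707). Its call was lost without PLASS 1 (0.0588) or PLASS 2 (0.0518), with log2 differences that stayed between 0.59 and 0.70. IER5 had 0.73 ± 0.11 (0.00651), and IER2 0.55 ± 0.12 (0.0176). CSRNP1, a nuclear factor gene first known as an AXIN1-induced gene, had 1.05 ± 0.23 (0.0208). PER1, a circadian repressor gene that serum and CREB also induce, was at 10.7, 9.95 and 15.6 CPM against 45.3, 50.5 and 23.7 (1.66 ± 0.30, 0.0110). IER2 and CSRNP1 lost their calls without PLDLS 1 or either PLASS library, and IER2 also without PLDLS 2.

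The phosphatases divided. DUSP1 (1.24 ± 0.16, adjusted p = 0.00325), DUSP2, a nuclear phosphatase (1.43 ± 0.17, 0.00302), and DUSP4 (0.67 ± 0.11, 0.00729) were higher in EXP2 in all 3 groups without overlap. The DUSP4 call was lost without PLASS 1 (0.0618) or PLASS 2 (0.0542). DUSP5 (0.48 ± 0.17, 0.0789) did not pass. DUSP6 was lower (-0.51 ± 0.14, 0.0373), by 0.14, 0.62 and 0.78 on the log2 scale within PLDLS, PLASS and EV; this call was lost without PLASS 1 (0.156), PLASS 2 (0.167) or EV 2 (0.0622), and without group terms (0.660). ZFP36, whose protein binds AU-rich mRNAs (1.20 ± 0.23, 0.0129), and BTG2, an antiproliferative gene (1.14 ± 0.13, 0.00235), were both higher. TIPARP, an ADP-ribosyltransferase gene, and SIK1 did not pass.

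Counts of members and of all genes did not always move together when a library was left out. The full fit called 22 members and 2567 genes (7.87% of all genes higher and 9.67% lower). Without PLASS 1, 12 members were called (5.66% of all genes, in either direction) and without PLASS 2, 13 (6.38%). Without PLDLS 1 or PLDLS 2 it was 20 and 22 (8.84% and 9.98%), and without EV 1 or EV 2 it was 28 and 27 (20.4% and 18.7%). Without the group terms 15 members were called (11.6% of all genes); FOSB, JUN, NR4A2, IER2, CSRNP1 and DUSP6 then missed the threshold and KLF4 was not tested. JUNB, JUND, ATF3, MAFF, EGR3, NR4A3, IER5, PER1, DUSP1, DUSP2, ZFP36 and BTG2 were called under every alternative tried for this comparison. Of the 10 myeloid markers 5 had a positive and 5 a negative difference between EXP2 and EXP1, with a median of -0.060, and 1 was called: CD34, a progenitor marker, was lower (-0.43 ± 0.11, adjusted p = 0.0345). Their summed level was 2056, 2062 and 2273 TPM in EXP1 and 1819, 1836 and 1608 in EXP2. The B cell sum was 16.6, 13.6 and 15.7 TPM in EXP1 and 9.60, 8.06 and 8.58 in EXP2, with 1 of 2 tested genes, CD79A, lower. The T cell sum was 4.57, 2.85 and 3.55 TPM against 2.10, 2.12 and 2.01. Of 2 tested megakaryocyte genes 1, GP9, was lower (-1.98 ± 0.55, 0.0404), while that list's sum overlapped between the experiments. The part of these markers in the result was not tested.

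Genes around the members were counted from lists of known pathway members, to be read against the 7.87% of all genes higher and 9.67% lower in EXP2. Of 17 genes of the RAS to ERK cascade 0 were higher and 2 lower in EXP2: SOS1, an exchange factor that loads RAS (-0.56 ± 0.10, adjusted p = 0.0101), and RPS6KA2, an ERK-activated kinase (-0.55 ± 0.11, 0.0143). Of 14 stress kinases of the JNK and p38 branches 0 were higher and 3 lower, and of 11 ternary complex, MRTF and CREB factors 0 were higher and 2 lower, namely CRTC1, a CREB coactivator (-1.01 ± 0.14, 0.00443), and MRTFB, an SRF coactivator (-0.72 ± 0.11, 0.00577). Among 12 genes of ERK output and feedback 5 were higher and 1 lower; the ERK inhibitors SPRED1 (0.72 ± 0.14, 0.0128) and SPRY2 (0.91 ± 0.21, 0.0236) were higher, and the receptor gene EPHA4 was lower (-1.18 ± 0.30, 0.0325). Of 10 tested genes of other AP-1 partners 4 were higher and 1 lower, led by ATF4, a factor of the stress response (1.03 ± 0.12, 0.00254).

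A list of 36 further early response genes had 32 tested, of which 16 were higher in EXP2 (7.87% of all genes) and 1 lower (9.67%), with a median of 0.61. GADD45B, a stress and NF-kB target (2.06 ± 0.17, adjusted p = 0.000804), RGS1, a G protein regulator (1.71 ± 0.14, 0.000804), NAB2, a corepressor of EGR proteins (1.04 ± 0.11, 0.00173), and NFKBIA, the inhibitor of NF-kB (2.10 ± 0.23, 0.00235), had the smallest p. The member that was lower was MYC (-0.55 ± 0.10, 0.0118).

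With PLDLS the same lists gave few calls with the block, and none without it. Against PLASS, where 1.52% of all genes were higher and 0.513% lower, the AP-1 partners BATF (1.11 ± 0.22, adjusted p = 0.0401) and ATF5 (-0.92 ± 0.17, 0.0350) passed, 1 in each direction among 10, and 0 genes passed in the other 5 lists. Against EV, where 3.24% of all genes were higher and 1.00% lower, 0 of 17 cascade genes passed, and 2 of 12 output genes were higher, EPHA4 (2.30 ± 0.36, 0.0102) and the ERK-induced gene PHLDA1 (1.78 ± 0.30, 0.0130). Of the further early response genes 5 of 32 were higher, among them RGS1 (1.55 ± 0.17, 0.00295) and KLF10 (1.22 ± 0.17, 0.00683), and 0 lower. Single genes passed in the other lists: the kinase gene MAP3K1 was higher among 14 stress kinases and the ternary complex factor gene ELK3 among 11 factors, and of the 10 AP-1 partners JDP2 was higher and ATF5 lower. In PLASS vs EV 0 genes of these lists passed in either fit.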

How the data were processed

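The libraries were made from poly-A RNA without strand marking, per the labels, so antisense reads count toward a gene. Salmon 0.3.1, bcl2fastq 1.8.4 and the build hg38 are named in the submitters' processing notes. The deposited estimated counts are Salmon's reads per RefSeq transcript, per the file headers, and are not normalized. The deposited TPM values sum to 1000000 per library and served to compare genes. The deposited effective length, an other kind of value, was an offset in an alternative fit.

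Transcripts were named from RefSeq (68195 of 69004) and GENCODE (410) tables; 0.0670% to 0.0891% of reads had no gene name and were left out. Counts were summed per gene, rounded and tested with edgeR 4.0.16 in R 4.3.3 (quasi-likelihood, TMM, filterByExpr, 6 libraries, Benjamini-Hochberg over 14631 genes). SE is the log2 difference over the root of F. CPM is TMM-scaled, and log2 differences within a group or experiment use CPM + 0.5. Replicates of a group differed beyond sampling noise (chi-square per gene 18.3 for PLDLS, 36.0 for PLASS, 79.8 for EV) and counted separately.

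The fit without a block came first. Differences between the numbers correlated over 10580 genes at 0.700 (PLDLS and PLASS), 0.540 (PLDLS and EV) and 0.616 (PLASS and EV), so pairing is inferred from the data and from the EXP number in the table names, whose meaning the labels do not give. Blocking lowered the common biological coefficient of variation from 0.236 to 0.130.

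Members and lists were chosen with earlier results of these data known. A member was described with its test where either fit called it, or otherwise as 1 of the 5 smallest blocked p; at most 4 genes per other list were named. EGR1, EGR2, KLF2, KLF6 and DUSP5 in EXP2 vs EXP1, and MYC, fall outside this rule and were named after their values were seen. On simulated data (13178 genes), the fits without the block recovered 0% of 2-fold changes in all 3 construct comparisons and 51% to 60% of 4-fold ones, and with the block 76% to 84% and 98% to 100%. For EXP2 vs EXP1 93% and 100% were recovered. These shares depend on the spread and the replicate effect put into the simulation, and recovery in the real libraries was not measured. In the real libraries the differences between the numbers correlated at only 0.540 to 0.700 between groups. Promoters are from RefSeq (GRCh38.p14). Alternatives were DESeq2 1.42.0, limma-voom (limma 3.58.1), other scalings and filters, the length offset, fewer groups and leaving out each library. Thinning, and SIK1 summed with its copy, were added after seeing the data.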

Additional observations from a re-analysis of the deposited data

How the results depend on the processing

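Each group comparison was refitted under the alternatives with and without the replicate block. Without the block, members called in PLDLS vs PLASS went from 0 to 2 with DESeq2 or no filter and to 1 with the block, and all genes called from 0 to 118 with DESeq2, 240 with no filter and 297 with the block. For PLDLS vs EV members went from 0 to 2 (DESeq2), 7 (no filter) and 5 (block), and all genes from 2 to 267 (DESeq2), 471 (no filter), 5 (limma-voom or the length offset), 7 (only these groups), 0 (upper-quartile scaling or thinning) and 621 (block), with 0 to 14 when a library was left out. For PLASS vs EV members went from 0 to 3 with no filter, and all genes from 0 to 3 (DESeq2), 33 (no filter) and 2 (block).

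With the block, members in PLDLS vs PLASS went from 1 to 2 (DESeq2, no filter or thinning) and 5 (only these groups), and were 1 to 4 with a library left out (4 without EV 1 or EV 2). All genes went from 297 to 588 (no filter) and 1113 (only these groups), and were 94 to 1067 with a library left out, lowest without PLASS 1 and highest without EV 1. In PLDLS vs EV members went from 5 to 8 (DESeq2) and 9 (no filter, or only these groups), and were 2 without PLDLS 1 to 15 without EV 1; all genes went from 621 to 1023 (no filter) and were 283 to 2143 over the same libraries. In PLASS vs EV members went from 0 to 1 (no filter) and were 0 to 9 with a library left out, 9 without EV 1 and 5 without PLASS 1. All genes went from 2 to 22 (DESeq2), 1 (limma-voom), 37 (no filter), 12 (only these groups) and 5 (thinning), and were 10 to 559, highest without EV 1. A group left with 1 library was assumed to vary like the others, and 1 residual degree of freedom remains with the block. The cause was not tested.

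For EXP2 vs EXP1, members called were 12 to 28 and all genes 848 to 3057 with a library left out, lowest without PLASS 1, against 22 and 2567; without group terms all genes were 1654. Upper-quartile scaling kept the members at 21 higher and 1 lower, while 5.19% in place of 7.87% of all genes were higher.

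Without the block, some differences turned sign without 1 library (range over left-out libraries, log2). DUSP4 in PLDLS vs PLASS ran from -0.72 to 0.072, EGR3 from -0.073 to 2.10 in PLDLS vs EV and from -0.52 to 2.0 in PLASS vs EV, FOSB in PLASS vs EV from -0.22 to 3.73, and JUNB in PLASS vs EV from -0.75 to 1.57. The sign turned without PLDLS 2 for EGR3 in PLDLS vs EV and without PLASS 2 for the others, and for JUNB also without EV 1 (-0.12). For the 5 members per construct comparison with the smallest blocked p, no blocked difference turned.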

Other observations

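Transcript shares were compared for the 12 members with several transcripts and at least 20 reads in every library, over the 27 transcripts with at least 2% of the gene's reads; this was chosen after seeing the data and no test was run. Of the 27 transcripts, 16 in 8 members had shares without overlap between EXP1 and EXP2, among them those of NR4A1. The share over all genes was not computed, so this count cannot be read as a trait of the members. The shares of a gene's transcripts are complementary, so the 16 are not separate observations. In SRF they were 99.5%, 99.7% and 99.8% in EXP1 against 100% in EXP2. The KLF6 transcript of 4538 bases held 9.78%, 12.4% and 13.1% of KLF6 reads in PLDLS 1, PLASS 1 and EV 1. In PLDLS 2, PLASS 2 and EV 2 it held 6.55%, 2.41% and 3.28%. The DUSP6 transcript of 2957 bases held 5.72%, 5.81% and 6.84% in EXP1 and 1.39%, 2.19% and 4.99% in EXP2, and the other DUSP6 transcript 93.2% to 98.6% in every library. All 30 FOSB reads of EV 2 were assigned to the transcript of 3668 bases, and all FOSB reads of the other 5 libraries to the transcript of 3775 bases.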
